A study of Ovis aries with 24 samples.

Results

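The ascending aorta of newborn lambs 12 hours after birth was compared with that of near-term fetal sheep. The members were chosen by title and stage: 4 newborn and 4 near-term aorta arrays, 8 of the 24 arrays of the series. The labels put the near-term fetuses at 136 days of gestation, with full term at 145, while the sample titles say 140. They speak of 4 animals per group, name no strain and no treatment other than the euthanasia solution given to ewes and lambs, and put the aortic segment next to the ductus arteriosus. The other 16 arrays are the ductus at the same stages and both vessels of preterm fetuses at 97 days. The labels do not say how the lambs were delivered, and the newborns differ from the near-term fetuses in age as well as in having been born.

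At birth the lungs take over gas exchange and blood oxygen rises. The ascending aorta goes on as the outlet of the left ventricle while the ductus constricts and closes. The aorta is a conduit artery: smooth muscle cells and elastic fibres fill its wall, a single endothelial layer lines it, and connective tissue, small vessels, nerve, fat and resident leukocytes surround it. Bulk RNA reads all of these cells at once, so fewer cells of a type and less RNA per cell cannot be told apart in any value given here.

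Each array held 1 Cy3-labelled RNA on a sheep oligonucleotide design, and values are log2 signal relative to the 75th percentile of the same array. Probes well above background made up 70.2 to 92.9% of the non-control spots on the near-term aorta arrays and 66.6 to 91.4% on the newborn arrays. The spike-in detection limit in the file headers was above 1.5 on near-term replicates 2, 3 and 4 and on newborn replicates 3 and 4, and the first principal component of the 8 arrays, 72.4% of their variance, followed that limit. The second, 8.56%, separated the stages, with near-term arrays at 0.62 or more and newborn arrays at -16.2 or less. All near-term arrays lay on 1 slide and all newborn arrays on another, each scanned in its own session, so stage, slide and scan cannot be told apart. The calponin gene CNN1 and the myosin light chain kinase gene MYLK, both smooth muscle markers, were bright on every array where their spots were kept, MYLK on 8 and CNN1 on 7, with levels from 4.19 to 6.41. The skeletal muscle myosin gene MYH1 lay between -7.49 and -1.75, well above background on 6 of the 8 arrays, and probes named for ACTA2 or ELN were not among those tested.

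Of 13997 tested probes, 902 were called between newborn and near-term aorta at an adjusted p under 0.05 in limma, 6.44% of all. Of these, 430 were higher in the newborn (3.07%) and 472 lower (3.37%), and 398 differed by 2-fold or more, 116 higher and 282 lower. The arrays of both groups did not overlap for 748 of the called probes, and for 1496 of all tested probes (10.7%). The median difference over all tested probes was -0.24, with quartiles of -0.76 and 0.13, and it depended on brightness: from the dimmest to the brightest of 5 equal groups of probes it ran -0.92, -0.53, -0.17, -0.02 and 0.08. Calls followed the same order, with 0 higher and 14 lower probes in the dimmest group and 226 higher and 107 lower in the brightest. The number of calls moved with the arrays used. It was 478 to 1532 with 1 array left out in turn, the highest without newborn replicate 4, and 0 with only the 8 arrays in the fit, where 1963 probes had an unadjusted p under 0.05.

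Only 794 genes could be named, and 43 of them were called (5.42%), 23 higher and 20 lower in the newborn aorta. Counts of calls in each gene list below stand beside 3.07% of all tested probes called higher and 3.37% called lower. The 4 and 4 arrays did not overlap for 18 of the 23 higher genes and 16 of the 20 lower ones. Calls rest on these same arrays, so lack of overlap is no separate evidence, and 748 of all 902 called probes had it. Over all tested probes, 5.54% had every newborn array higher and 5.15% every newborn array lower. With each of the 8 arrays left out in turn, 16 genes kept their call: ASPM, CD14, CENPB, COPG2, CRYAB, CXCL8, FBLN1, HMMR, IGFBP2, INHA, PMCH, RPL35A, TNFRSF11B, TPSB2, TYMS and UBE2D2. Of these, ASPM, CXCL8, HMMR, TNFRSF11B and TYMS also kept it under each of 4 other scalings. The scalings were normexp background correction, quantile normalisation, median centring and a 75th percentile over the probes detected on every array. With only the 8 arrays in the fit all 43 calls were lost. With only arrays of a spike-in limit above 1.5, ASPM, TNFRSF11B and TYMS lost theirs too (limma adjusted p = 0.244, 0.243 and 0.124). Arrays under that limit include only 1 near-term aorta array, so calls among them are not listed by gene. With only the 12 aorta arrays in the fit, ASPM, CD14, CRYAB, RPL35A, TPSB2 and UBE2D2 of the 16 genes lost their calls (limma adjusted p = 0.0604 to 0.0726). Median centring ended 30 of the 43 calls; those it kept were ASPM, BCAT1, BEGAIN, CCR3, CXCL8, FABP4, HMMR, INHA, JUNB, PDXK, PMCH, TNFRSF11B and TYMS. Normexp correction ended 17: ACTG1, APOA1, ATP6V0C, BCAT1, BEGAIN, CALM2, CCR3, CD14, CD247, INHA, JAG1, KDR, KIAA2013, MTHFD2, PDGFB, PDXK and PURA. Quantile normalisation ended 10: AGTR2, BEGAIN, CCR3, CD247, JAG1, KDR, PMCH, PURA, TIMP1 and XBP1. The detected-probe percentile ended 4: ACTG1, BCAT1, PURA and XBP1.

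**Figure D1:**
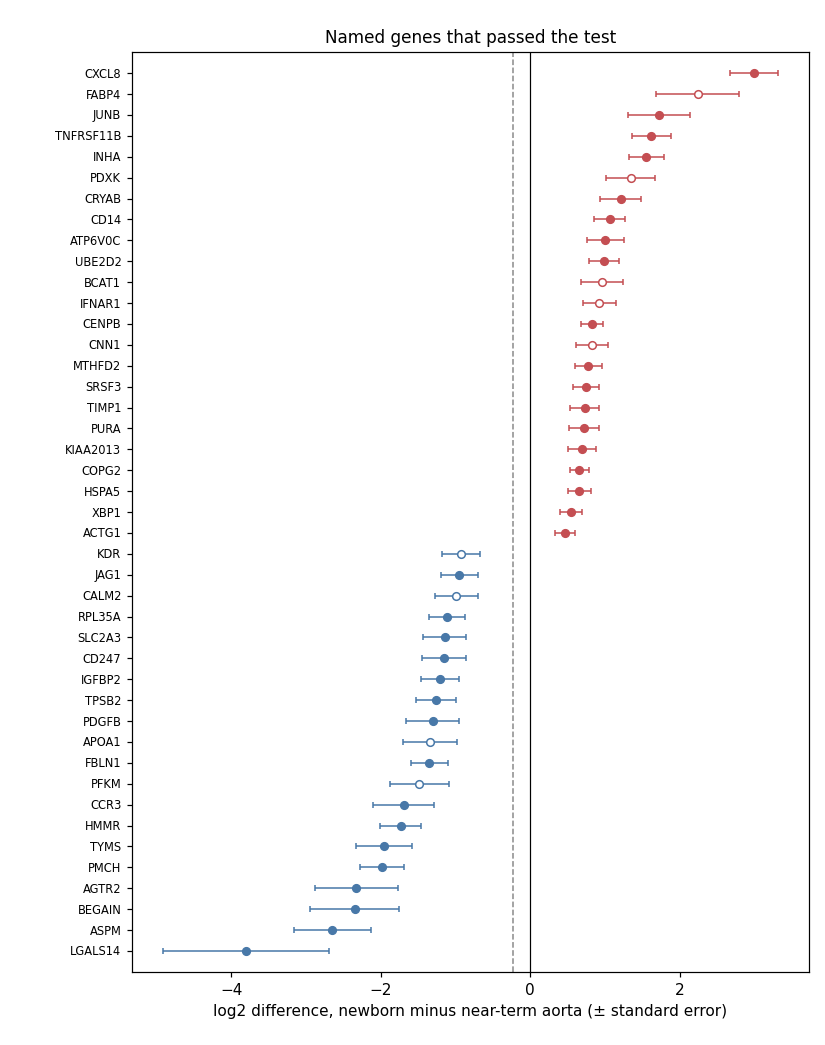
Fitted log2 difference, newborn minus near-term aorta, for each of the 43 named genes called in limma, with bars of 1 standard error; filled points are genes whose arrays did not overlap between the groups, open points those that overlapped or had a spot left out, and the dashed line is the median of all tested probes at -0.24. CXCL8, higher by 2.99, and LGALS14, lower by 3.81, stand at the ends, and most other called genes lie within 2.5 of 0.

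Inflammatory signalling held the largest rise among named genes. CXCL8 encodes interleukin 8, a chemokine that draws neutrophils. Its level was -3.47, -3.57, -3.85 and -3.87 on near-term replicates 1 to 4 and 0.26, -1.23, -0.25 and -1.57 on the newborn replicates. Every newborn array lay above every near-term array by more than 1.9, and the mean rose 7.96-fold (log2 difference 2.99 ± 0.32 SE, adjusted p = 7.53e-05, n = 4 and 4). The difference was 1.51 with normexp background correction (adjusted p = 0.035). CD14, the lipopolysaccharide co-receptor carried by monocytes and macrophages, read -1.48, -1.57, -1.38 and -1.67 near term and 0.18, -0.36, -0.63 and -1.04 in the newborn. These groups did not overlap either, and CD14 rose 2.09-fold (1.07 ± 0.21 SE, adjusted p = 0.00456), a call lost with normexp correction (0.54, adjusted p = 0.219).

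These were the only called members among the 29 tested inflammation genes, where 6.44% of all tested probes were called. The list had 15 members above 0 and 14 below, with a median difference of 0.00 beside -0.24 for all tested probes. SAA3, an acute phase apolipoprotein, differed by 1.34 ± 0.66 (adjusted p = 0.269), and PTX3, a soluble pattern recognition protein, by 0.86 ± 0.29 (adjusted p = 0.0837), neither past the threshold. NFKBIA, the inhibitor of NF-kB that NF-kB itself induces, differed by 0.72 (adjusted p = 0.176). IL6 was not well above background on any of the 8 aorta arrays, and no fold is given for it. The 7 macrophage and monocyte markers, CD14 among them, had a summed linear level of 2.38 to 2.83 near term and 2.41 to 3.21 in the newborn, ranges that overlap. The 5 neutrophil markers summed to 0.614 to 1.82 and 0.368 to 1.07, and none of them was called in limma (1 had an unadjusted p under 0.05). Whether cell content contributes to the CXCL8 or CD14 rise was not tested.

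Among 11 immediate early genes, those transcribed within minutes of a stimulus, only JUNB was called. JUNB, a subunit of the AP-1 transcription factor, read -3.12, -1.56, -1.13 and -1.23 near term and 0.07, -0.54, 0.37 and -0.05 in the newborn. All newborn arrays were above all near-term ones, and near-term replicate 1 lay well under the rest of its group. The rise was 3.3-fold (1.72 ± 0.41 SE, adjusted p = 0.0165), and without that replicate the adjusted p was 0.0539. MYC, a growth-promoting transcription factor, differed by 1.10 ± 0.36 (adjusted p = 0.0725). RCAN1, an inhibitor of calcineurin, was at -0.84 (adjusted p = 0.159). The median of the list was 0.29, and its glucocorticoid and circadian counterparts, 6 genes each, had medians of -0.57 and -0.45 with no member called (2 and 0 members had an unadjusted p under 0.05 in limma).

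**Figure D2:**
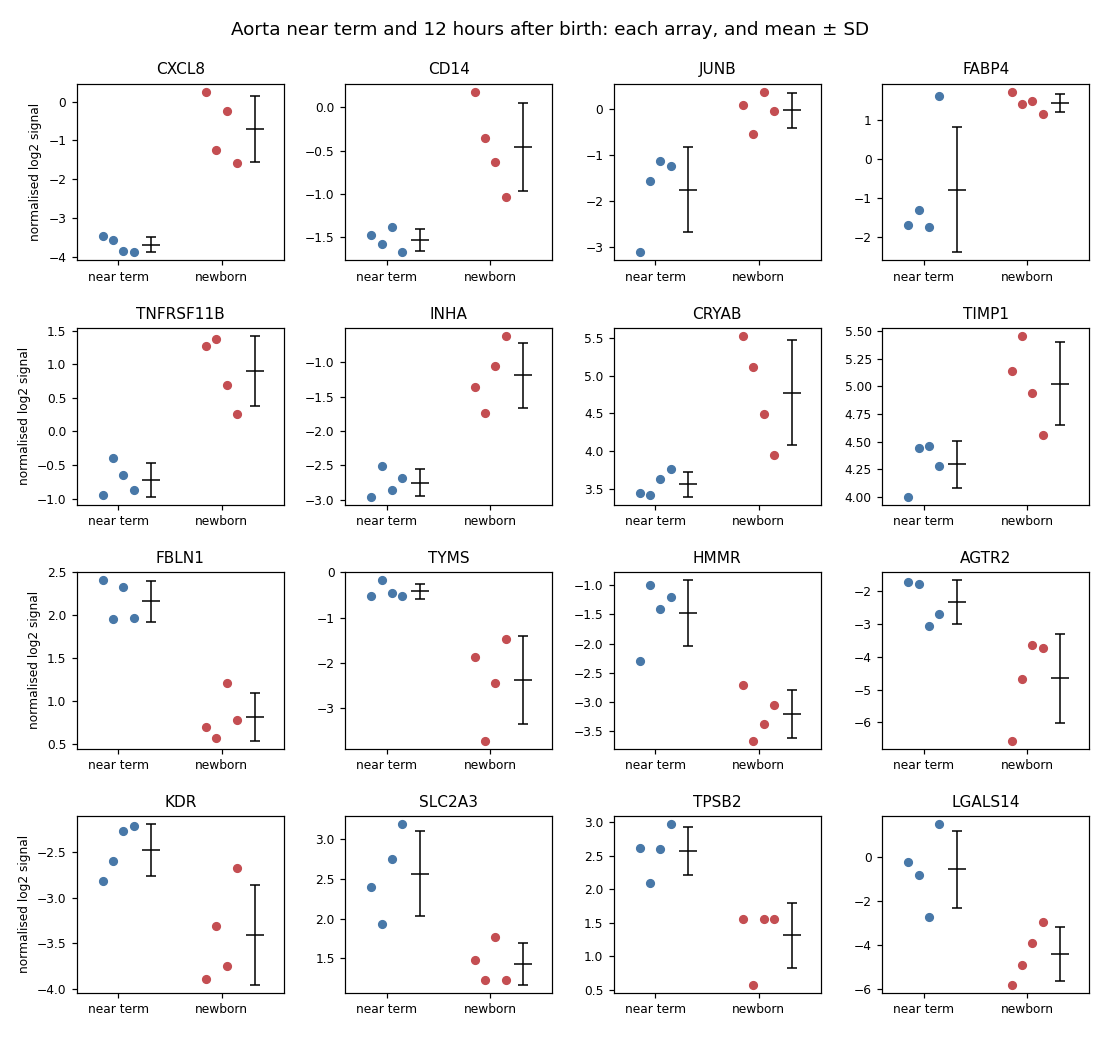
Log2 signal relative to the array's 75th percentile for 16 genes, with a dot for each near-term and newborn aorta array in replicate order and a bar for the group mean ± SD. The newborn dots for CXCL8 run from -1.57 to 0.26 and the near-term dots from -3.87 to -3.47, while near-term replicate 4 of FABP4, at 1.63, sits among the newborn arrays.

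Of 7 tested genes of chaperones and the unfolded protein response, 3 rose in the newborn aorta and none fell, where 3.07% of all probes were called higher. All 7 differences were above 0, with a median of 0.55. CRYAB, a small heat shock protein that binds unfolded proteins and desmin filaments, read 3.44, 3.41, 3.63 and 3.76 near term and 5.53, 5.12, 4.49 and 3.95 in the newborn. The groups were apart by 0.19 at their closest, newborn replicate 4 against near-term replicate 4, and CRYAB rose 2.32-fold (1.21 ± 0.27 SE, adjusted p = 0.0112). HSPA5, the main chaperone of the endoplasmic reticulum, read 3.14, 3.08, 2.99 and 3.39 near term and 4.24, 3.51, 3.86 and 3.63 in the newborn, with no overlap, and rose 1.58-fold (0.66 ± 0.16 SE, adjusted p = 0.0151). XBP1, a transcription factor of the unfolded protein response, read 3.67, 3.46, 3.63 and 3.41 near term and 4.32, 3.90, 4.28 and 3.85 in the newborn. It rose 1.46-fold, again without overlap (0.55 ± 0.15 SE, adjusted p = 0.0328).

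The other 4 members did not pass: DDIT3, a stress-induced transcription factor, differed by 0.65 (adjusted p = 0.187), and HSPA1A and HSP90AA1, cytosolic chaperones, by 0.24 and 0.08. Of the 7 genes, 6 lie in the 2 brightest of the 5 groups of probes, whose own medians were -0.02 and 0.08. DDIT3 was below 0 with normexp correction, HSP90AA1 below 0 with quantile normalisation, and no member was called with median centring. HSPA5 lost its call without near-term replicate 3 or newborn replicate 1 (adjusted p up to 0.0579), and XBP1 without near-term replicate 2, 3 or 4 or newborn replicate 1 or 3 (up to 0.108).

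Contractile and cytoskeletal genes held 2 rises among 8 tested, where 3.07% of all probes were called higher, with a median difference of 0.11. CNN1, which encodes the actin-binding calponin of smooth muscle, read 5.26, 5.23 and 5.42 on near-term replicates 1, 2 and 4, the spot of replicate 3 being left out as an outlier, and 6.41, 6.31, 6.23 and 5.57 in the newborn. All 4 newborn arrays were above the 3 near-term values, newborn replicate 4 by the least, and the rise was 1.77-fold (0.83 ± 0.21 SE, adjusted p = 0.0264). ACTG1, cytoplasmic gamma actin, read 6.99, 6.83, 6.83 and 6.90 near term and 7.29, 7.43, 7.46 and 7.24 in the newborn, and rose 1.38-fold without overlap (0.47 ± 0.14 SE, adjusted p = 0.0462). ACTB, cytoplasmic beta actin, was at 0.42 (adjusted p = 0.216), CAV1, the coat protein of caveolae, at -0.69 (adjusted p = 0.104) and VIM, the intermediate filament vimentin, at -0.31 (adjusted p = 0.381). CNN1 lost its call without near-term replicate 1 or 2 or newborn replicate 1, 2 or 3 (adjusted p up to 0.0899), and ACTG1 without any single array except newborn replicate 4 (up to 0.112). The smooth muscle markers CNN1 and MYLK together summed to 70.0 to 105 on near-term replicates 1, 2 and 4 and 65.9 to 149 in the newborn, ranges that overlap.

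Matrix genes went both ways: 2 of 14 rose and 1 fell, beside 3.07% and 3.37% of all probes, and the median was -0.44. TNFRSF11B encodes osteoprotegerin, a secreted decoy receptor for RANKL made by vascular smooth muscle. Its level was -0.95, -0.39, -0.64 and -0.88 near term and 1.28, 1.38, 0.69 and 0.26 in the newborn, where all arrays stood above all near-term ones. TNFRSF11B rose 3.07-fold (1.62 ± 0.26 SE, adjusted p = 0.0014).

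TIMP1, an inhibitor of matrix metalloproteinases, read 4.00, 4.44, 4.46 and 4.28 near term and 5.14, 5.46, 4.94 and 4.56 in the newborn. The groups did not overlap, and TIMP1 rose 1.66-fold (0.73 ± 0.19 SE, adjusted p = 0.0264), a call lost without near-term replicate 1 or 4 or newborn replicate 1 or 2 (adjusted p up to 0.1). FBLN1, fibulin 1, a glycoprotein of elastic fibres and basement membranes, went the other way. It read 2.41, 1.95, 2.32 and 1.96 near term and 0.69, 0.57, 1.20 and 0.78 in the newborn. The gap between the groups exceeded 0.7, and FBLN1 fell 2.55-fold (-1.35 ± 0.24 SE, adjusted p = 0.00292). The small leucine-rich proteoglycans BGN (-0.52, adjusted p = 0.0905) and DCN (-0.43, adjusted p = 0.373) did not pass, nor did the collagen VI gene COL6A1 (-1.46, adjusted p = 0.467). Fibroblast markers, 3 genes with none called in limma and none with an unadjusted p under 0.05, summed to 20 to 41 near term and 13.1 to 30.6 in the newborn.

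In the TGF-beta, BMP, activin and Notch list, 1 of 31 genes rose and 1 fell, near the 3.07% and 3.37% of all probes. The median of the list was -0.38. INHA, the inhibin alpha subunit, which pairs with a beta subunit to form an antagonist of activin, read -2.95, -2.51, -2.86 and -2.68 near term and -1.36, -1.74, -1.06 and -0.62 in the newborn. All newborn arrays were higher, and INHA rose 2.94-fold (1.56 ± 0.24 SE, adjusted p = 0.00104). That call was lost with normexp correction (0.72, adjusted p = 0.155). JAG1, a ligand of Notch receptors that signals between neighbouring endothelial and smooth muscle cells, read -0.79, -0.21, -1.04 and -1.04 near term and -1.82, -1.58, -1.45 and -2.01 in the newborn. It fell 1.93-fold without overlap (-0.95 ± 0.25 SE, adjusted p = 0.029). JAG1 lost the call with normexp correction and without near-term replicate 1 or 2 or newborn replicate 1, 2 or 4 (adjusted p up to 0.11). The ligands TGFB2 (-1.29, adjusted p = 0.207) and TGFB3 (-0.71, adjusted p = 0.156) and the signal carrier SMAD2 (-0.49, adjusted p = 0.196) did not pass.

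Vasoactive peptides and their receptors set the tone of vessels. Of 19 tested genes, 1 fell and none rose, where 3.37% of all probes were called lower, with a median of -0.65. Of the 19, 12 lie in the 2 dimmest of the 5 groups of probes, whose medians were -0.92 and -0.53. With quantile normalisation the list's median was -0.11, with 10 genes below 0 and 9 above. AGTR2, the type 2 angiotensin II receptor, which is abundant in fetal tissues, read -1.73, -1.80, -3.07 and -2.71 near term and -6.56, -4.68, -3.64 and -3.73 in the newborn. The arrays did not overlap, newborn replicate 1 was the lowest, and 3 of 4 newborn arrays were well above background. AGTR2 fell 5.01-fold (-2.33 ± 0.56 SE, adjusted p = 0.0164), a call lost without near-term replicate 1 or 2 or newborn replicate 1 (adjusted p up to 0.0574) and with median centring or quantile normalisation (0.061 and 0.0501). With normexp correction the AGTR2 difference was -1.21 (limma adjusted p = 0.0338), so its size depends on the background correction.

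The type 1 receptor AGTR1 differed by 0.15 ± 0.37 (adjusted p = 0.831) and the converting enzyme gene ACE by -0.63 ± 1.33 (adjusted p = 0.802). Endothelin 1, EDN1, a constrictor released by endothelium, differed by 0.01 ± 0.34 (adjusted p = 0.994). Its receptors EDNRA and EDNRB were at -1.37 ± 0.87 (adjusted p = 0.411) and 0.03 ± 0.50 (adjusted p = 0.977), and the neuropeptide Y receptor NPY1R at 0.38 ± 0.34 (adjusted p = 0.546). With errors as wide as those of ACE and EDNRA, changes of several-fold could go undetected. Under at least 1 other setting EDN1, EDNRB, NPY1R, AGTR1 and ACE changed sign.

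Prostanoid and nitric oxide genes held no call: 0 of 16 in limma, where 1 had an unadjusted p under 0.05, with a median of -0.52. PTGS1, the constitutive cyclooxygenase, differed by -0.01 ± 0.21 (adjusted p = 0.975), PTGS2, the inducible one, by 0.24 ± 0.30 (adjusted p = 0.671) and NOS3, endothelial nitric oxide synthase, by -0.49 ± 0.35 (adjusted p = 0.459). The sign of PTGS1, PTGS2 and NOS3 turned under at least 1 other setting.

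Angiogenic growth factors and their receptors lay below 0 as a group. All 22 tested genes had a negative difference, and 2 were called lower, where 3.37% of all probes were. The median was -0.81 against -0.24 for all probes. KDR, the main VEGF receptor of endothelium, read -2.82, -2.60, -2.28 and -2.22 near term and -3.88, -3.31, -3.75 and -2.68 in the newborn. Newborn replicate 4 lay within the near-term range and the other 3 below it. KDR fell 1.9-fold (-0.93 ± 0.25 SE, adjusted p = 0.0333), and its 4 probes were all lower, 2 of them called. PDGFB, a ligand that recruits mural cells, read -2.18, -2.52, -1.90 and -2.19 near term and -3.03, -3.79, -4.57 and -2.64 in the newborn, and fell 2.47-fold without overlap (-1.31 ± 0.35 SE, adjusted p = 0.029).

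The growth factor receptors EGFR (-1.56, adjusted p = 0.0767) and MET (-0.73, adjusted p = 0.151) did not pass. VEGFA, the main angiogenic ligand, read -4.97, -3.92, -2.84 and -3.89 near term and -6.88, -7.40, -5.21 and -3.04 in the newborn, with newborn replicate 4 inside the near-term range (-1.73 ± 0.72 SE, adjusted p = 0.178). Its spot passed the background flag on 3 near-term and 2 newborn arrays. Of the 22 genes, 13 belong to the 2 dimmest of the 5 groups of probes, whose medians were -0.92 and -0.53, and with quantile normalisation 17 of 22 stayed below 0. No member was called with normexp correction, and without newborn replicate 4, 6 were, with a median of -1.57. KDR lost its call without near-term replicate 2, 3 or 4 or newborn replicate 1, 2 or 3 (adjusted p up to 0.118), and PDGFB without near-term replicate 1, 3 or 4 or newborn replicate 2 or 3 (up to 0.0986). The 7 endothelial markers, KDR among them, summed to 0.813 to 1.90 near term and 0.780 to 1.62 in the newborn, ranges that overlap, and their part in the KDR difference was not tested.

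Hypoxia response genes were also all below 0, with 1 of 8 called lower, where 3.37% of all probes were, and a median of -0.93. Of the 8, 4 lie in the 2 dimmest groups of probes, whose medians were -0.92 and -0.53, and 4 in the 2 brightest. With normexp, quantile or median scaling 7 of the 8 stayed below 0. With arrays blocked by spike-in limit, above or under 1.5, 6 did, and the median was -0.53. SLC2A3, the high-affinity glucose transporter GLUT3, read 2.40, 1.93, 2.75 and 3.20 near term and 1.48, 1.23, 1.77 and 1.22 in the newborn. Near-term replicate 2 and newborn replicate 3 came within 0.2 of each other, and the groups did not overlap. SLC2A3 fell 2.21-fold (-1.14 ± 0.29 SE, adjusted p = 0.0219), a call lost without near-term replicate 3 or 4 or newborn replicate 2 (adjusted p up to 0.0754). LDHA, the lactate dehydrogenase subunit of glycolysis, was at -0.36 (adjusted p = 0.509) and EPAS1, the endothelial hypoxia-inducible factor, at -1.24 (adjusted p = 0.535).

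Glycolysis, which shares SLC2A3 with the hypoxia list, had 2 of 10 members called lower, beside 3.37% of all probes, and a median of -0.33. The other one was PFKM, the muscle form of phosphofructokinase. It read -3.0, -2.11, -1.82 and -2.80 near term and -4.78, -3.92 and -3.06 on newborn replicates 1 to 3, where the spot of replicate 4 was left out as an outlier. PFKM fell 2.8-fold (-1.49 ± 0.39 SE, adjusted p = 0.0296), with a call lost without near-term replicate 2 or 3 or newborn replicate 1 or 2 (adjusted p up to 0.179). The call was also lost with outlier spots kept (limma adjusted p = 0.429), so it depends on leaving out that spot. ALDOA, the aldolase of muscle, was at 0.44 (adjusted p = 0.397).

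**Figure D3:**
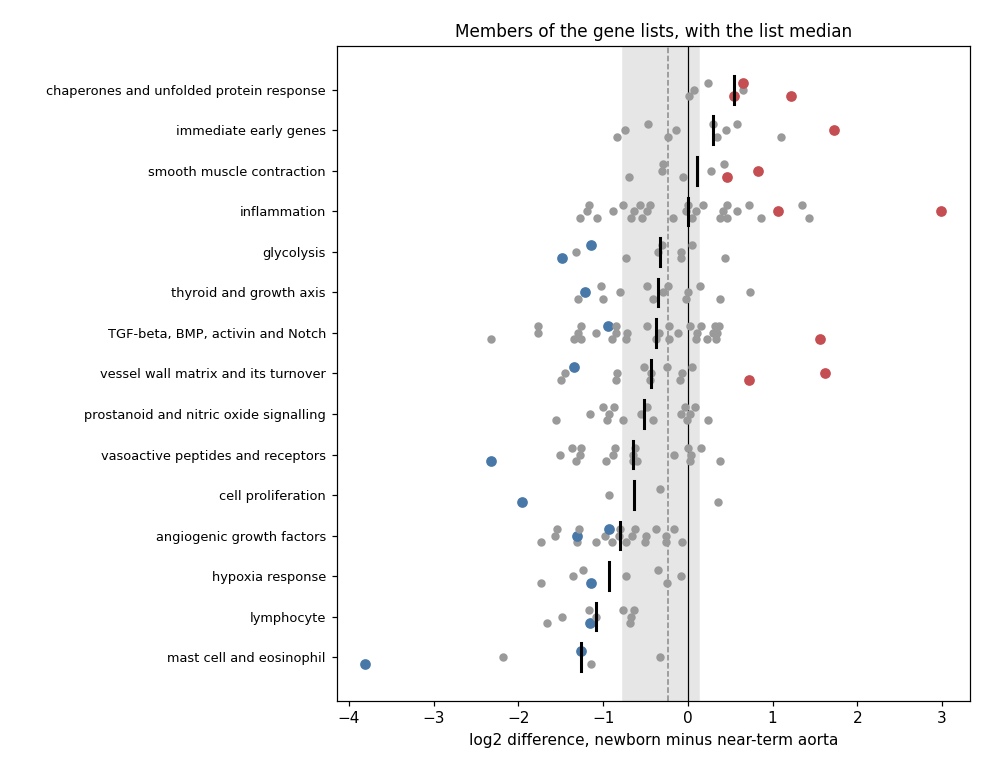
Log2 difference, newborn minus near-term aorta, of every tested gene in 15 lists, with called genes in red (higher) or blue (lower), uncalled genes in grey and a black bar at each list's median. The grey band spans the quartiles of all tested probes, -0.76 to 0.13, and the dashed line their median of -0.24; the 7 chaperone genes all lie above 0 and the 22 angiogenic genes all below it.

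TYMS, HMMR and ASPM, genes of dividing cells, fell in the newborn aorta. TYMS, thymidylate synthase, an enzyme of DNA precursor synthesis, read -0.53, -0.17, -0.46 and -0.52 near term and -1.88, -3.71, -2.44 and -1.48 in the newborn. The groups were apart by more than 0.9, and TYMS fell 3.88-fold (-1.96 ± 0.38 SE, adjusted p = 0.00457). It was 1 of 4 tested proliferation genes and the only one called, the list's median being -0.63. PCNA, the DNA polymerase clamp, was at -0.33 and CDKN1B, the cyclin-dependent kinase inhibitor p27, at -0.93, neither of them called.

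HMMR and ASPM, which encode spindle-associated proteins of mitotic cells, lie outside that list. HMMR read -2.30, -1.0, -1.41 and -1.20 near term and -2.72, -3.67, -3.39 and -3.06 in the newborn, and fell 3.33-fold without overlap (-1.74 ± 0.28 SE, adjusted p = 0.0014). ASPM read -2.50, -2.51, -2.84 and -2.48 near term and -4.67, -5.29, -7.40 and -3.55 in the newborn. Its near-term arrays were close together, 2 of 4 newborn arrays were well above background, and it fell by a fitted 2.65 ± 0.52 SE (adjusted p = 0.00493). The size of that fall rests in part on signal not well above background, and it was -1.16 with normexp correction (adjusted p = 0.0263).

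Of 14 thyroid and growth axis genes, 1 was called lower, where 3.37% of all probes were, and the median was -0.35. IGFBP2, a binding protein of insulin-like growth factors that is prominent in the fetus, read 1.72, 1.97, 1.37 and 2.05 near term and 1.15, 0.54, 0.18 and 0.38 in the newborn. The groups did not overlap, and IGFBP2 fell 2.32-fold (-1.21 ± 0.26 SE, adjusted p = 0.00777). The binding proteins IGFBP3 and IGFBP5 were at 0.73 and -1.01 and the receptor IGF2R at -1.03, none called.

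Fatty acid use held 1 rise among 16 genes, with a median of -0.40. FABP4, the fatty acid carrier of adipocytes and of capillary endothelium, read -1.71, -1.31, -1.75 and 1.63 near term and 1.74, 1.42, 1.49 and 1.17 in the newborn. Near-term replicate 4 was at the level of the newborn arrays, 2.94 above the next near-term array, and the groups overlapped. FABP4 rose 4.73-fold (2.24 ± 0.55 SE, adjusted p = 0.0192), by 3.05 without that replicate (adjusted p = 0.000492), and the call was lost without near-term replicate 1, 2 or 3 or newborn replicate 1 (adjusted p up to 0.0682). The 6 adipocyte markers, FABP4 among them, summed to 1.47, 1.5, 1.89 and 17.6 near term and 8.0, 5.66, 3.96 and 4.70 in the newborn. UCP1, the uncoupling protein of brown fat, read -2.81, -2.62, -1.43 and 3.23 near term and 1.85, 0.87, -2.05 and -0.08 in the newborn, so near-term replicate 4 was again the highest and its mean difference was 1.06 ± 1.44 (adjusted p = 0.692). The part of fat around the vessel in the FABP4 value was not tested.

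Of 5 tested markers of mast cells and eosinophils, 2 fell and none rose, where 3.37% of all probes were called lower. All 5 had a negative difference under every scaling tried, with a median of -1.26. TPSB2, a tryptase stored in mast cell granules, read 2.61, 2.09, 2.60 and 2.97 near term and 1.55, 0.57, 1.56 and 1.55 in the newborn, and fell 2.4-fold without overlap (-1.26 ± 0.27 SE, adjusted p = 0.00801). LGALS14, a galectin that sheep eosinophils release, read -0.23, -0.82, -2.73 and 1.49 near term and -5.79, -4.89, -3.88 and -2.96 in the newborn. Near-term replicate 3 lay within 0.3 of newborn replicate 4, 3 of 4 newborn arrays were well above background, and LGALS14 fell 14-fold (-3.81 ± 1.11 SE, adjusted p = 0.0455). That call was lost without near-term replicate 1, 2 or 4 or newborn replicate 1, 2 or 3 (adjusted p up to 0.137). With normexp correction the LGALS14 difference was -2.33 (limma adjusted p = 0.0155), so the size of its fall depends on the background correction.

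The summed linear level of the 5 markers was 6.04 to 12.1 near term and 2.01 to 4.57 in the newborn, with no overlap. TPSB2 was the brightest of them, with a mean log2 level of 2.57 near term and 1.31 in the newborn. FCER1A came next by mean near term, at 0.01 and -0.32, so the sum largely repeats the TPSB2 fall. KIT, the stem cell factor receptor of mast cells, was at -2.18 (adjusted p = 0.305), FCER1A, the alpha chain of the IgE receptor, at -0.32 (adjusted p = 0.653) and the galectin LGALS15 at -1.15 (adjusted p = 0.605). CCR3, the eotaxin receptor of eosinophils, which was in none of the lists, fell 3.24-fold (-1.70 ± 0.41 SE, adjusted p = 0.0178), a call lost with normexp correction and without near-term replicate 4 or newborn replicate 1 (up to 0.0674).

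All 9 lymphocyte markers were below 0, with 1 called and a median of -1.08. CD247, the zeta chain of the T cell receptor complex, fell 2.23-fold (-1.15 ± 0.29 SE, adjusted p = 0.0225), a call lost with normexp correction and without near-term replicate 4 or newborn replicate 1 or 2 (adjusted p up to 0.0752). The receptor chains CD3E (-1.48, adjusted p = 0.232) and CD3G (-1.66, adjusted p = 0.304) and the chemokine receptor CXCR4 (-0.77, adjusted p = 0.169) did not pass. These are dim genes, 8 of 9 in the 2 dimmest groups of probes, and 6 of 9 were below 0 with quantile normalisation. Their summed level was 0.446 to 2.28 near term and 0.259 to 1.13 in the newborn. HBB, adult beta globin, a red blood cell marker, read 2.54, 2.77, 2.53 and 6.58 near term and 2.80, 2.81, -0.47 and 1.39 in the newborn. It did not pass (-1.97 ± 0.83 SE, adjusted p = 0.18), and near-term replicate 4 was the highest array, as it was among the near-term arrays for LGALS14 and FABP4.

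Among the remaining rises, UBE2D2, a ubiquitin-conjugating enzyme, was 1.99-fold higher (0.99 ± 0.20 SE, adjusted p = 0.00576), and CENPB, a centromere protein, 1.78-fold (0.83 ± 0.15 SE, adjusted p = 0.00332). ATP6V0C, a subunit of the vacuolar proton pump, rose by 1.00 ± 0.25 (adjusted p = 0.0187). The interferon receptor chain IFNAR1, the only one called of 10 interferon response genes, rose by 0.93 ± 0.22 (adjusted p = 0.0173). BCAT1, a branched-chain aminotransferase and the only call among 12 transport-related genes, rose by 0.96 ± 0.28 (adjusted p = 0.0463), a value of 0.015 with normexp correction. MTHFD2, a mitochondrial enzyme of folate metabolism, rose by 0.78 ± 0.19 (adjusted p = 0.0156) and SRSF3, a splicing factor, by 0.75 ± 0.18 (adjusted p = 0.016). Apart from UBE2D2 and CENPB, each of these calls was lost without newborn replicate 1, with an adjusted p of 0.0537 to 0.139 at its highest over the arrays left out.

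Among the remaining falls, PMCH, the precursor of melanin-concentrating hormone, was 3.95-fold lower (-1.98 ± 0.30 SE, adjusted p = 0.00101), with 3 of 4 newborn arrays well above background. The PMCH difference was -1.13 with normexp correction (limma adjusted p = 0.0263). RPL35A fell 2.17-fold (-1.11 ± 0.24 SE, adjusted p = 0.0111). It was the only one called of 19 ribosomal protein genes, where 6.44% of all probes were called, and their median was -0.18. BEGAIN, a synaptic protein gene, was not well above background on any newborn array and was at least 1.69-fold lower there, taking each newborn array at the higher of its own signal and its lowest signal well above background (limma adjusted p = 0.0219, lost without near-term replicate 3 or 4 or newborn replicate 2 or 3, up to 0.0792). A further 6 called genes fell outside the naming rule and are listed after their values were seen. COPG2, KIAA2013, PDXK and PURA were higher by 0.66, 0.69, 1.34 and 0.72, and APOA1 and CALM2 lower by 1.34 and 0.99. None of 8 apoptosis and survival genes was called, nor had any an unadjusted p under 0.05 in limma.

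Most of the response has no gene name here: 824 of the 902 called probes carry no symbol. The unnamed probe with the clearest rise, A_70_P056306, read -2.79, -1.95, -1.72 and -2.53 near term and 0.63, 0.38, 0.61 and 0.10 in the newborn, with tight groups far apart (2.68 ± 0.23 SE, adjusted p = 2.76e-06). A larger fitted rise was that of A_70_P016701 (2.85 ± 0.67 SE, adjusted p = 0.0151). In the other direction, A_70_P022102 read 1.80, 1.98, 0.64 and 4.52 near term and -2.30, -0.94, -1.88 and -2.10 in the newborn (-4.04 ± 0.84 SE, adjusted p = 0.00971). A_70_P001941 had the largest fitted fall (-4.99 ± 1.39 SE, adjusted p = 0.0358), with 2 newborn arrays well above background. Near-term replicate 4 was the highest array of A_70_P022102, as it was for HBB.

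The preterm aorta gives a level for each gene at 97 days of gestation. Both comparisons use the near-term arrays, so an array that is high or low there moves them in opposite directions, and their values are set side by side only. Between preterm and near term 69 of 13997 probes were called (0.493%). IGFBP2 was at 3.62 ± 0.31 (SD, n = 4) in the preterm aorta, 1.78 ± 0.31 near term and 0.56 ± 0.42 in the newborn, with a change of -1.85 before term (adjusted p = 0.00119) and -1.21 after it. TYMS was at 0.54 ± 0.14, -0.42 ± 0.17 and -2.38 ± 0.97, and its earlier change of -0.96 did not pass (adjusted p = 0.344). AGTR2 stood at -1.08 ± 0.33, -2.33 ± 0.67 and -4.65 ± 1.35 (earlier change -1.25, adjusted p = 0.429) and FBLN1 at 2.76 ± 0.27, 2.16 ± 0.24 and 0.81 ± 0.27 (earlier change -0.60, adjusted p = 0.351). The mean of these 4 genes was lower at each later stage, and only the IGFBP2 step before term passed the test.

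FABP4 was at -3.96 ± 0.61 preterm, -0.79 ± 1.62 near term and 1.46 ± 0.23 in the newborn, with an earlier change of 3.18 (adjusted p = 0.011). LGALS14 peaked near term: -4.90 ± 0.81, -0.57 ± 1.74 and -4.38 ± 1.22, where the earlier change of 4.33 did not pass (adjusted p = 0.0941). HSPA5 had the opposite shape, 3.82 ± 0.09, 3.15 ± 0.17 and 3.81 ± 0.32, with an earlier change of -0.66 (adjusted p = 0.0636). INHA changed little before term, from -2.33 ± 0.32 to -2.75 ± 0.19 (adjusted p = 0.62), and stood at -1.20 ± 0.47 in the newborn. PTGS1, which was at -0.01 ± 0.21 across birth, changed by -1.01 before it (adjusted p = 0.0279).

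**Figure D4:**
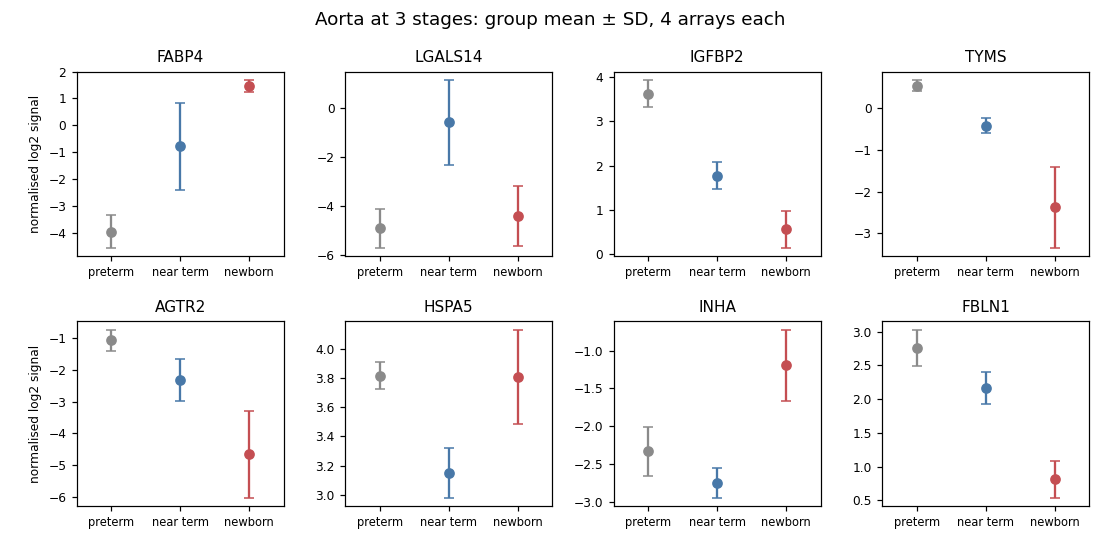
Mean ± SD (n = 4 arrays) of the log2 signal relative to the array's 75th percentile in preterm, near-term and newborn aorta for 8 genes. IGFBP2, TYMS, AGTR2 and FBLN1 step down at both intervals, LGALS14 is highest near term at -0.57 and HSPA5 lowest there at 3.15.

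The ductus arteriosus of the same stages lay in column 1 of the same slides and the aorta in column 2. A slide effect shared by both vessels cancels in the difference between their birth changes, and one that differs between columns does not. Spike-in limits of the ductus arrays were 0.58 to 0.90 in the newborn and 0.44 to 2.55 near term, while the aorta had arrays on both sides of 1.5 at both stages. The difference between the vessels' birth changes was called for 55 probes (0.393%), 48 of them higher in the ductus, and for 7 of the 94 genes reported here. Between near-term and newborn ductus 1515 probes were called (10.8%), 4.37% higher and 6.45% lower. SLC2A3 changed in opposite directions: it fell by 1.14 in the aorta and rose by 2.66 ± 0.29 in the ductus (difference 3.80 ± 0.41 SE, adjusted p = 0.000165). TIMP1 rose in both, by 0.73 in the aorta and 2.45 ± 0.19 in the ductus (difference 1.72 ± 0.27 SE, adjusted p = 0.0029), and with median centring the difference was not called (adjusted p = 0.186). INHA rose by 1.56 in the aorta and was at -0.05 ± 0.24 in the ductus (difference -1.61 ± 0.34 SE, adjusted p = 0.0349), the only one of the 7 with the larger rise in the aorta. The INHA difference was lost with normexp correction (-0.98, adjusted p = 0.661), quantile normalisation (adjusted p = 0.193) and median centring (adjusted p = 0.279), and without near-term replicate 1, 3 or 4 or newborn replicate 1, 3 or 4 (0.0508 to 0.083).

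The other 4 genes changed in the ductus and were not called in the aorta. PTGS2 was at 0.24 in the aorta and rose by 3.66 ± 0.30 in the ductus (difference 3.42 ± 0.42 SE, adjusted p = 0.000268), a call lost with quantile normalisation (adjusted p = 0.117). PTX3 was at 0.86 and 3.41 ± 0.29 (difference 2.55 ± 0.41 SE, adjusted p = 0.00361). RCAN1 was at -0.84 in the aorta and rose by 1.47 ± 0.34 in the ductus (difference 2.31 ± 0.47 SE, adjusted p = 0.0343). That call was lost with median centring (adjusted p = 0.0947), with array weights (0.0691) and without near-term replicate 3 or 4 or newborn replicate 1 or 4 (0.0585 to 0.0858). IL6 was not well above background on the aorta arrays and on 3 of 4 near-term ductus arrays, and read -0.91 to 0.61 on the newborn ductus arrays, all well above it. Its fitted difference between the vessels passed the test (adjusted p = 0.000427), but its size rests on background signal, and the call was lost with normexp correction (adjusted p = 0.182). Outside the reported genes, CHI3L1, MCL1, SELP and SOD2 also passed, singled out after their values were seen, each with the larger change in the ductus (differences 3.11, 1.74, 2.61 and 3.16).

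For most other called aorta genes the vessels were not told apart. CXCL8 rose by 2.99 in the aorta and 4.46 ± 0.32 in the ductus (difference 1.46 ± 0.45 SE, adjusted p = 0.273) and JUNB by 1.72 and 3.68 ± 0.41 (difference 1.96 ± 0.58 SE, adjusted p = 0.237). TNFRSF11B rose by 1.62 and 1.36 ± 0.26 (difference -0.26 ± 0.37 SE, adjusted p = 0.884), FABP4 by 2.24 and 2.2 ± 0.55 (difference -0.04 ± 0.78 SE, adjusted p = 0.991) and CD14 by 1.07 and 1.51 ± 0.21 (difference 0.45 ± 0.29 SE, adjusted p = 0.822). TYMS changed by -1.96 in the aorta and -1.92 ± 0.38 in the ductus (difference 0.04 ± 0.54 SE, adjusted p = 0.989). TPSB2 changed by -1.26 and -2.14 ± 0.27 (difference -0.88 ± 0.38 SE, adjusted p = 0.564). CNN1, which rose by 0.83 in the aorta, was at -0.11 ± 0.20 in the ductus (difference -0.93 ± 0.29 SE, adjusted p = 0.29), and FBLN1, which fell by 1.35, at -0.37 ± 0.24 (difference 0.98 ± 0.34 SE, adjusted p = 0.383). Among these genes, differences between the vessels of up to 1.96, that of JUNB, missed the threshold, which does not show that the vessels changed alike.

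**Figure D5:**
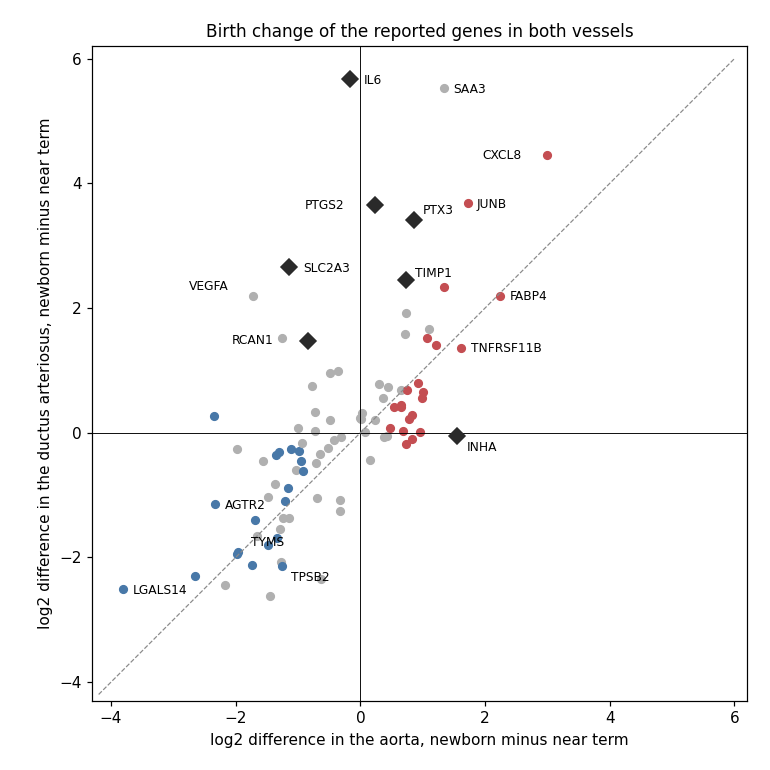
Birth change (newborn minus near term, fitted log2 difference) in the aorta, horizontal, against that in the ductus, vertical, for the 94 genes reported; red and blue mark genes called higher or lower in the aorta, grey those not called, black diamonds the 7 genes whose change differed between the vessels, and the dashed line equal change. IL6, PTGS2, PTX3, SLC2A3, RCAN1 and TIMP1 lie above the line and INHA below it.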

How the data were processed

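Total RNA of sheep ascending aorta and ductus was read on Agilent arrays of 1 colour, with a single sample on each. What the authors deposited is linear intensity for every spot, background-corrected by Feature Extraction 9.5.3.1 under protocol GE1-v5_95_Feb07 (design 019921), per the file headers. Control spots and spots flagged non-uniform or population outlier were left out, the log2 signal was set relative to each array's 75th percentile, and spots of 1 probe were averaged. Probes well above background on at least 4 of 24 arrays were tested (13997 of 15008). limma 3.58.1 (R 4.3.3) fitted 6 group means on all 24 arrays, with eBayes and two-sided p-values adjusted by Benjamini-Hochberg over all tested probes. The comparison of the vessels is the interaction in the same fit. The fit was tested on simulated data.

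Symbols came from the array's names and accessions through a RefSeq table (assembly ARS-UI_Ramb_v3.0, used for names only) and a hand-made table: 1486 probes had one and 13522 none. A gene stands for its probe with the highest mean signal. Named genes are, among called genes with no overlap between the arrays, the 12 largest rises and 12 largest falls, every called member of a list, the 3 uncalled members with the smallest p in a described list, and a panel of vessel genes. The members and lists were chosen with earlier results of these data known.

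The number of arrays limits the precision, with 4 animals a group by the labels. The p-values rest on a spread pooled within the 6 groups of all 24 arrays, ductus and preterm included. They do not rest on the spread of the 8 compared arrays alone. None of the 8 arrays was a copy of another, and within a group they correlated at 0.863 to 0.979 over probes. Alternatives were other background corrections, scalings, filters, sample sets and blocks. No probe sequence is printed.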

Additional observations from a re-analysis of the deposited data

Results flagged for a closer look

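Of 188 groups of 4 arrays examined, over the 94 genes reported, 9 held an array far from the others, where chance gives about 1 in 20, or 9.4. Near-term replicate 4 stood apart for FABP4 at 1.63, with the next array at -1.31, and for HBB at 6.58, with the next at 2.77. Near-term replicate 1 stood apart for DDIT3 at -3.95, for HSPA1A at 0.88 and for RPL35A at 6.74. Near-term replicate 3 did so for ASPM at -2.84 and for KIT at -3.14, and near-term replicate 2 for PTX3 at -1.19. Newborn replicate 2 stood apart for TPSB2 at 0.57, with the next at 1.55.

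The birth change of the ductus minus that of the aorta passed the limma test for 7 of the 94 genes reported: IL6 at 5.85 (a fitted value that rests on background signal in the aorta), SLC2A3 at 3.80, PTGS2 at 3.42, PTX3 at 2.55, RCAN1 at 2.31, TIMP1 at 1.72 and INHA at -1.61.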

How the results depend on the processing

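Stage, slide and scan cannot be told apart, most probes have no symbol, and the median difference depended on how bright a probe was. The number of calls, 902 (430 higher, 472 lower), moved to 181 (94 and 87) with median centring, 238 (112 and 126) with only the 12 aorta arrays, 2330 (862 and 1468) with array weights, 17 (7 and 10) among arrays with a spike-in limit above 1.5 and 1498 (473 and 1025) among those under it, and 0 (0 and 0) with only the 8 arrays in limma (1963 at an unadjusted p under 0.05). The class under 1.5 has 1 near-term aorta array, assumed to vary like the other groups. Leaving out 1 array gave 478 to 1532 calls (249 to 612 higher, 229 to 920 lower): 626, 494, 582 and 674 without near-term replicates 1 to 4 and 541, 478, 668 and 1532 without newborn replicates 1 to 4. A 75th percentile over probes detected on every array gave 344 higher and 580 lower, 37.2% higher against 47.7%. Normexp correction (640), quantile normalisation (815), other filters (834 and 1163), outlier spots kept (893), an intensity trend (1032) and the spike-in class as a block (805) stayed within 1.5 times. Between near-term and newborn aorta, same-numbered arrays deviated with correlations of -0.305 to 0.549, and 3 of 8 arrays matched their own number best. Correlations ran from -0.276 to 0.805 within a spike-in class and from -0.679 to 0.238 across classes. The check therefore cannot decide whether the numbers pair samples, and pairing of aorta with ductus was not checked. With the replicate block 965 probes were called in limma, and the vessel differences of INHA and RCAN1 were not (adjusted p = 0.0701 and 0.0696). Median differences over all probes were -0.42 with normexp, -0.0047 with quantile, -0.015 with median centring and -0.12 with the class block. The vessel difference was called for 5 to 10 of the 94 genes reported.

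None of the 43 called genes changed sign under any alternative run. Normexp correction ended 17 calls, quantile normalisation 10, median centring 30, the class block 3, and leaving out at least 1 array 27. All 43 were lost with only the 8 arrays in the fit, and 40 with only arrays of a spike-in limit above 1.5. Genes that were not called changed sign as follows. With normexp: DDIT3 -0.071, EDN1 -0.41, EDNRB -0.45, NPY1R -0.054, PTGS1 0.21, PTGS2 -0.42 and VIM 0.0045. With quantile normalisation: ACE 0.12, HSP90AA1 -0.045 and IL6 0.60. With median centring: IL6 0.054 and PTGS1 0.21. With the percentile over detected probes: EDN1 -0.061 and EDNRB -0.035. With array weights: EDN1 -0.45, IL6 0.41, NPY1R -0.056 and PTGS1 0.11. With the class block: ACE 0.25 and PTGS1 0.025. Above the spike-in limit: ACE 0.43, AGTR1 -0.087, EDN1 -0.42, IL6 0.23, LGALS15 0.075 and PTGS1 0.10. Under it: CREM -0.059, EDNRB -0.38, HBB 0.26, HSP90AA1 -0.17, NOS3 0.22 and PTGS2 -0.11. With 1 array left out the differences ran from -1.69 to 0.25 for ACE, -0.043 to 0.32 for AGTR1, -0.30 to 0.26 for EDN1, -0.22 to 0.29 for EDNRB, -0.034 to 0.21 for HSP90AA1, -0.17 to 0.47 for HSPA1A, -0.42 to 0.15 for IL6 and -0.082 to 0.080 for PTGS1. The cause was not tested.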
